A study of Mus musculus with 2 samples.

Results

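Long DNase I footprints were the stretches of 25 bp or more that the deposited footprint lists mark as protected from cutting in open chromatin of the mouse left cerebral cortex. They were selected on their width alone, on chromosomes 1 to 19, and made up 10.7% of the list in replicate 1 (27601 of 258552) and 6.93% in replicate 2 (26150 of 377178). Footprints of 7 to 12 bp, the narrowest in the lists, served for comparison and numbered 166613 and 271300. Both libraries came from left cortex of adult male B6CASTF1/J mice of 18 to 20 months, an F1 hybrid of a C57BL/6 strain and the wild-derived CAST strain, and formed a single untreated group. Their labels name different biosamples under 1 donor entry, so the spread between libraries may be technical. With 2 libraries of 1 group no test between conditions exists and an exact sign-flip test cannot go below p = 0.5, so all values are descriptions, given for each library.

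DNase I cuts accessible DNA wherever no protein shields it, so a bound protein leaves a short run of uncut bases inside a region of dense cutting. The length of that run depends in part on how much DNA the protein contacts. CTCF, a protein with a long array of zinc fingers that anchors chromatin loops and insulates neighbouring genes, covers a longer stretch than most transcription factors, and some of its sites carry a separate upstream motif read by further fingers. At tRNA genes, transcribed by RNA polymerase III, the factor TFIIIC binds boxes inside the gene and TFIIIB sits just upstream of the start.

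The long footprints that carried the clearest sequence signature held the core of the CTCF motif. The sequences below are reference sequence (mm10) of long footprints found in both libraries, each spanning the union of both intervals and printed 5′ to 3′ on the strand of the motif. The first 3 show the common form with the core alone, in capitals, and the next 3 the wider form, in which capitals mark the upstream motif TGCANTNCC and then the core. Within each form they are the intervals in the strongest peaks, with no exonic base.
Fem1a upstream, chr17:56255944-56255974, minus strand: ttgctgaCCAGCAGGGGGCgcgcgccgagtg
Nuak1 intron, chr10:84438192-84438222, minus strand: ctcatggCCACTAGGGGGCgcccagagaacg
Clvs1 distal, chr4:9135963-9135995, plus strand: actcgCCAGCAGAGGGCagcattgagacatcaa
Srxn1 distal, chr2:152112084-152112132, plus strand: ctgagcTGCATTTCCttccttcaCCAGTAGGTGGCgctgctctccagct
Ptma distal, chr1:86501759-86501805, plus strand: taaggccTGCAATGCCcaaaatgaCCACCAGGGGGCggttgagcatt
Olfr1402 distal, chr3:97338995-97339038, minus strand: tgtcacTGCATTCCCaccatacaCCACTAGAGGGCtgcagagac

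Long footprints carried the CTCF core far more often than short ones. A window of 41 bp on the footprint centre held an exact core in 16.3% of long footprints in replicate 1 and 14.9% in replicate 2 (15.6% ± 1.02, SD, n = 2). The share was 0.343% and 0.275% among footprints of 7 to 12 bp, and 2.41% and 1.57% among all footprints. In windows centred 100 bp to either side of the long footprints it was 0.0634% and 0.0860%. With up to 1 mismatch the core stood in 41.4% and 37.4% of long footprints against 1.89% and 1.41% of short ones, and the windows to either side of the long ones held it in 0.408% and 0.482%. Both libraries thus placed the core in long footprints and seldom beside them.

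Seen from the motif, the picture was alike. Of 5462 exact CTCF cores inside the main peaks of replicate 1, 97.2% had their central base in a footprint, and 83.2% of those covered lay in a long one. In replicate 2 the shares were 92.9% of 5337 cores and 76.6% of those covered. The median footprint over a CTCF core was 30 bp and 29 bp wide. Over AP-1 sites (TGANTCA), bound by Fos and Jun proteins, it was 13 bp and 12 bp, and 17.3% of 7620 and 23.4% of 18924 sites were covered at all. Other motifs varied in this median. It was 26.5 bp and 26 bp over ZNF143 sites (ACTACAATT), on 44 and 83 covered sites. Over TGACGTCA it was 23 bp in both libraries, and over CAGCTG 13 bp and 11 bp. The share of all main peak bases that lie in footprints was not computed, so the shares of sites covered have no baseline here.

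The widths of long footprints were not spread evenly. Their number fell from 25 bp on, had a shoulder or rise near 30 bp, dropped to a low near 40 bp and rose again near 45 bp in both libraries. Among footprints with a CTCF core (up to 1 mismatch) both rises stood out as separate peaks. They were highest at 30 bp (1321 footprints) and 45 bp (256) in replicate 1, with a low of 77 at 37 bp. In replicate 2 they were highest at 29 bp (863) and 46 bp (279), with a low of 125 at 38 bp. The share with a core reached 53.1% and 43.8% at 29 to 32 bp, fell to 29.1% and 30.01% at 37 to 40 bp and was 59.2% and 57.5% at 45 to 48 bp. With up to 2 mismatches it was 82.0% and 78.0% at 45 to 48 bp, beside 6.77% and 5.38% in footprints of 7 to 12 bp. At the threshold itself nothing changed abruptly: footprints of 24 bp held an exact core in 5.68% and 7.34% of cases and those of 25 bp in 6.59% and 8.62%.

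**Figure D1:**
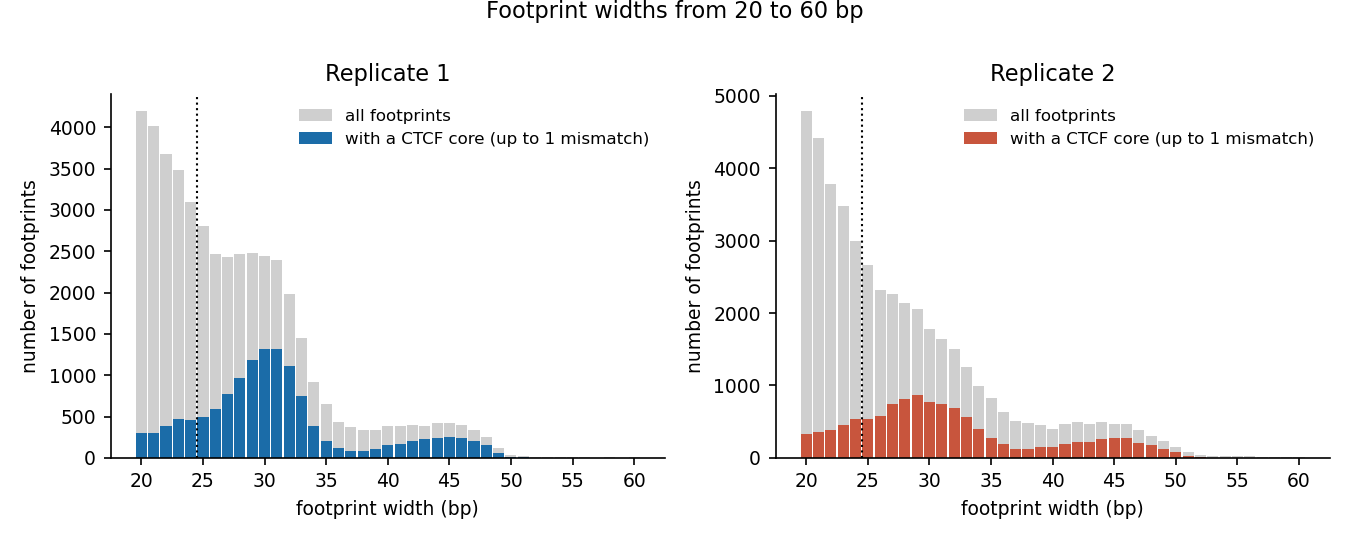
Number of footprints (vertical axis) at each width from 20 to 60 bp (horizontal axis) in replicate 1 (left) and replicate 2 (right); grey bars are all footprints, coloured bars those with a CTCF core of up to 1 mismatch in the 41 bp window, and the dotted line is the threshold of 25 bp. Coloured bars peak at 30 and 45 bp in replicate 1 and at 29 and 46 bp in replicate 2.

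The CTCF footprints near 45 bp extended to 1 side of the core. Read along the strand of the core (up to 1 mismatch), footprints of 29 to 32 bp began a median 5 bp before the core in both libraries and ended 13 bp after it. Footprints of 45 to 48 bp began 22 bp before the core, with quartiles of 21 and 23 bp in both libraries, and ended 12 bp after it. The upstream edge thus differed between the forms and the downstream edge hardly did. Between these forms, from 36 to 37 bp, the median upstream edge went from 10.5 to 19 bp in replicate 1 and from 8.5 to 14.5 bp in replicate 2, where it reached 20 bp at 39 bp. Few CTCF footprints had such widths. The 6 printed sequences show both forms: in replicate 1 the footprints of the first 3 began 5 or 6 bp before the core and those of the next 3 began 23 bp before it.

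The upstream motif was more frequent at wide CTCF footprints than at narrower ones, but most wide ones lacked it. TGCANTNCC, whose letters were taken up after leading 8-mers of wide footprints had been seen, stood between the core and 40 bp upstream in 15% of 1780 CTCF footprints of 41 bp or more in replicate 1 and 9.58% of 2078 in replicate 2. At 25 to 36 bp it stood there in 2.18% of 9214 and 1.78% of 7144. Its first base lay 17 bp before the core in 95.1% and 94.0% of the wide footprints that had it. With up to 1 mismatch, starting 16 to 18 bp before the core, it was present in 44.2% and 32.6% of the wide footprints and 6.64% and 5.92% of those of 25 to 36 bp. At the mirrored distance downstream of the core the same search gave 0.618% and 0.529% in the wide ones. CTCF footprints with the exact upstream motif had a median width of 40 and 41 bp, and those without it 31 bp in both libraries. Of those with the motif 47.7% and 52.2% were 41 bp or wider, against 13.9% and 20.0% of those without. Where the core was exact, the upstream motif stood at 7.57% and 4.83% of footprints of 41 bp or more. At 25 to 36 bp it stood at 0.702% and 0.536% of them. The motif was also present without a recognised core: among footprints of 41 to 48 bp with no core of up to 1 mismatch, 16.2% and 8.60% held it on either strand, beside 0.728% and 0.643% of short footprints without a core. Forms of the motif led the 8-mers of this same set against short footprints. This last contrast is therefore not independent of the choice of letters.

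**Figure D2:**
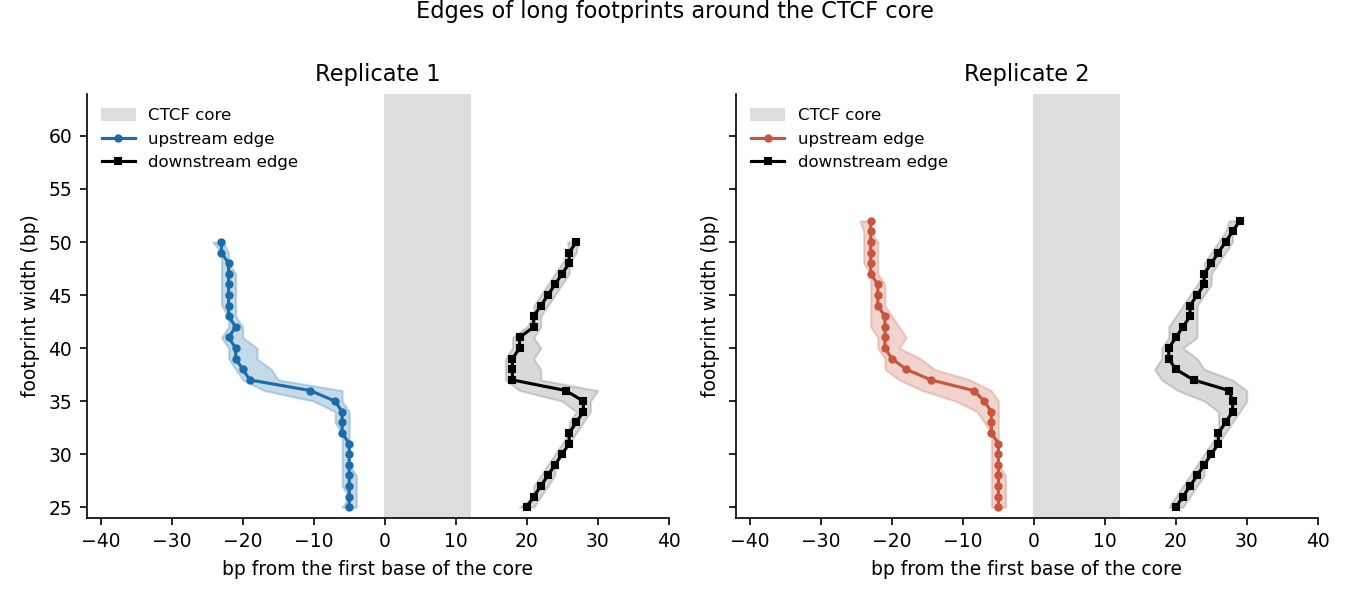
Position of the upstream (coloured) and downstream (black) footprint edge in bp from the first base of the CTCF core (horizontal axis, sense of the core) for long footprints with a core of up to 1 mismatch, by footprint width (vertical axis, bp), in both libraries; lines are medians, shading runs from the lower to the upper quartile and the grey band is the core. The upstream edge sits 5 bp before the core at 29 to 32 bp and 22 bp before it at 45 to 48 bp, while the downstream edge ends 13 and 12 bp after it.

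Long footprints with and without a recognised CTCF core lay in different places. Those with a core (up to 1 mismatch) were within 1 kb of a protein-coding transcription start site (TSS) in 6.07% and 6.29% of cases, and those without in 37.2% and 44.6%. The former lay in peaks of median signal 2.41 and 1.60 and the latter in peaks of 3.57 and 2.67. A long footprint of the other library overlapped 74.4% and 86.8% of those with a core and 51.7% and 51.2% of those without. Beyond 1 kb of a TSS, 51.3% and 50.2% of long footprints had a core, and within 1 kb 10.3% and 7.77%. With up to 2 mismatches, 55.4% and 50.9% of all long footprints held a core, beside 3.19% and 3.32% of windows 100 bp away. Some of those counted as without a core may thus hold a weaker one.

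Among the widest long footprints, many lay at tRNA genes or, in replicate 2, near protein-coding TSSs. Of 386 tRNA genes annotated by RefSeq on these chromosomes, 200 in replicate 1 and 170 in replicate 2 (51.8% and 44.04%) overlapped a long footprint, and 161 did so in both libraries. Among the 224 and 222 tRNA genes overlapping a main peak the shares were 87.5% and 71.6%. tRNA genes held only 277 and 240 long footprints (1.00% and 0.918%), but 39 of the 77 and 50 of the 191 footprints of 53 bp or more (50.6% and 26.2%). A protein-coding TSS stood no more than 1 kb from 35.1% and 57.6% of the latter class, beside 31.2% and 24.2% of all footprints. Of footprints of 7 to 12 bp, 73 and 133 (0.0438% and 0.0490%) overlapped a tRNA gene, and of all footprints 0.164% and 0.127%. A footprint of any width overlapped 237 and 242 of the tRNA genes (61.4% and 62.7%). The 6 examples below are reference sequence on the strand of the gene, with bases of the gene in capitals; they are the widest in both libraries of a gene-body and an upstream form.
n-TRtcg2, tRNA-Arg body, chr13:21279731-21279773, plus strand: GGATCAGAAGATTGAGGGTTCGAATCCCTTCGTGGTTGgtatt
n-TNgtt6, tRNA-Asn body, chr1:171033936-171033980, minus strand: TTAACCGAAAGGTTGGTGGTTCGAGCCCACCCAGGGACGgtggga
n-TEctc11, tRNA-Glu body, chr13:21160778-21160821, minus strand: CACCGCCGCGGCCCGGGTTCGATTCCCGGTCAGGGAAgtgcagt
n-TSgct7, tRNA-Ser upstream, chr2:119046816-119046879, minus strand: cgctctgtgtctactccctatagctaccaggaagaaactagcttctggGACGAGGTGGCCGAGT
n-TLtag1, tRNA-Leu upstream, chr7:120835547-120835611, minus strand: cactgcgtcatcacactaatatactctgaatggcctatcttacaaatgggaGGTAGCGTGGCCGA
n-TRccg2, tRNA-Arg upstream, chr17:23550326-23550387, minus strand: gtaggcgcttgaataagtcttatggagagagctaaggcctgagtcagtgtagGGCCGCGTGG

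These footprints fell into the same pair of forms in both libraries. The gene-body form (196 and 157 footprints, centred inside the gene) began a median 39 and 40 bp into the gene, ended 3 and 1 bp past its end and was 37 and 34 bp wide. It held GGTTCGA, letters of the B box that TFIIIC binds, in 71.4% and 71.3% of cases. The upstream form (81 and 83 footprints, centred before the gene) began 46 and 47 bp upstream of the first base and ended 8 bp into the gene in both libraries. It was 51 and 55 bp wide and included every tRNA footprint of 53 bp or more. GGTTCGA stood in 0% of cases. This form ends before the part of the gene with these letters, so the 0% follows from its definition. Both forms occurred together at 77 and 70 genes. A long footprint of the other library overlapped 77.6% and 96.8% of the body form and 91.4% and 89.2% of the upstream form. Reads from tRNA genes of like sequence cannot always be placed: 28.2% and 25.8% of these footprints held at least 1 base without a unique 36-mer, against 1.15% and 1.02% of all long footprints. Such bases made up 1.72% and 2.12% of their length, against 0.410% and 0.390%.

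**Figure D3:**
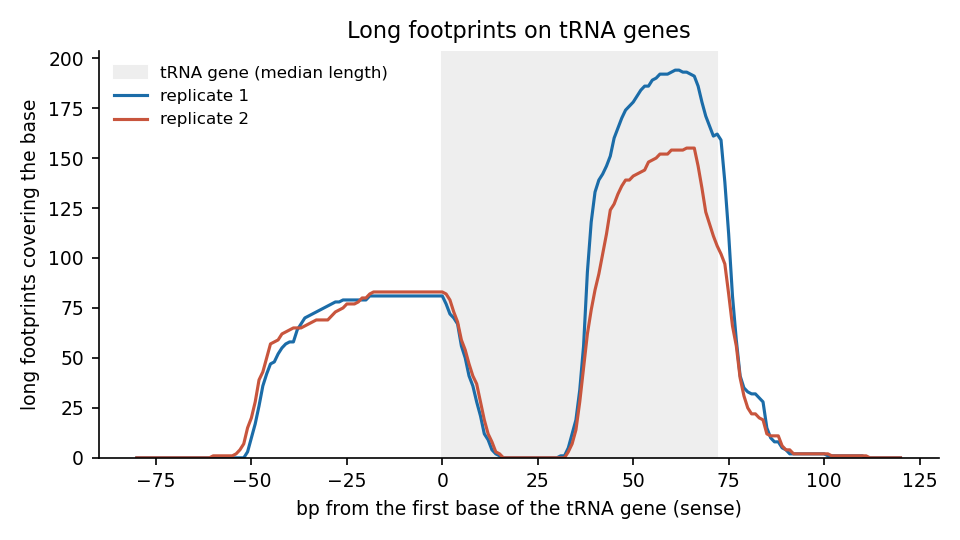
Number of long footprints covering each base (vertical axis) around tRNA genes, by distance in bp from the first base of the gene in its sense (horizontal axis); lines are the 2 libraries and the grey band is the median gene length of 72 bp. Coverage splits into an upstream block and a block over the 3′ part of the gene in both libraries.

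The other motifs separated long from short footprints less sharply. Of the 23 motif sequences searched on both strands, 12 had a higher share in long than in 7 to 12 bp footprints in both libraries and 8 a lower share. The cAMP response element (CRE, TGACGTCA), bound by CREB and ATF factors, stood in 0.855% and 1.23% of long windows and 0.160% and 0.0980% of short ones, a ratio of 5.34 and 12.5. Windows 100 bp from the long footprints held it in 0.0978% and 0.161%. YY1 sites (AAGATGGCG) stood in 0.435% and 0.455% against 0.164% and 0.115%. That difference lay beyond 1 kb of a TSS, with 0.421% and 0.450% in long against 0.0429% and 0.0329% in short footprints, while within 1 kb the shares were 0.477% and 0.467% against 0.447% and 0.416%. ZNF143 sites (ACTACAATT), read by a zinc finger protein of promoters, were in 0.0906% and 0.180% against 0.0336% and 0.0258%, on 25 and 47 long footprints. RFX sites had 0.123% and 0.207% against 0.0330% and 0.0475%, on 34 and 54 long footprints. RFX factors act in cilia genes and bind as dimers. NFI sites were on 16 and 10 long footprints only. REST, which silences neuronal genes outside neurons, had a site in 9 long footprints of replicate 1 and 0 of replicate 2.

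Promoter motifs of GC-rich sequence were also higher in long than in 7 to 12 bp footprints, more so in replicate 2. SP/KLF sites (GGGCGGG) stood in 4.55% and 7.32% of long windows against 3.54% and 2.18% of short ones. NRF1 sites (GCATGCGC), of a regulator of mitochondrial genes, stood in 0.543% and 0.788% against 0.370% and 0.236%. Among all footprints SP/KLF sites stood in 4.91% and 3.55% and NRF1 sites in 0.586% and 0.404%. Against all footprints, both motifs were thus lower in long ones in replicate 1 and higher in replicate 2. Beyond 1 kb of a TSS, SP/KLF shares were 1.19% and 1.67% in long and 1.32% and 0.850% in short footprints. NRF1 shares there were 0.153% and 0.241% against 0.253% and 0.157%. Within 1 kb of a TSS the SP/KLF shares were 15% and 20.3% in long and 8.69% and 7.003% in short footprints, and the CRE shares 2.67% and 3.18% against 0.214% and 0.106%. Several motifs went the other way. AP-1 sites were in 1.10% and 1.97% of long and 2.74% and 4.10% of short windows. CAGCTG, an E-box of neuronal basic helix-loop-helix factors, was in 2.38% and 2.40% against 4.21% and 3.89%. POU sites (ATGCAAAT) had 0.112% and 0.0841% against 0.178% and 0.305%, and GATA sites (AGATAAG) 0.0942% and 0.0880% against 0.178% and 0.256%. Windows 100 bp from the short footprints held AP-1 in 1.47% and 1.95% and CAGCTG in 2.69% and 2.70%. They held POU in 0.214% and 0.264% and GATA in 0.309% and 0.337%. AP-1 and CAGCTG were thus higher in short footprints than beside them, and GATA was lower. POU was lower in replicate 1 and higher in replicate 2.

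**Figure D4:**
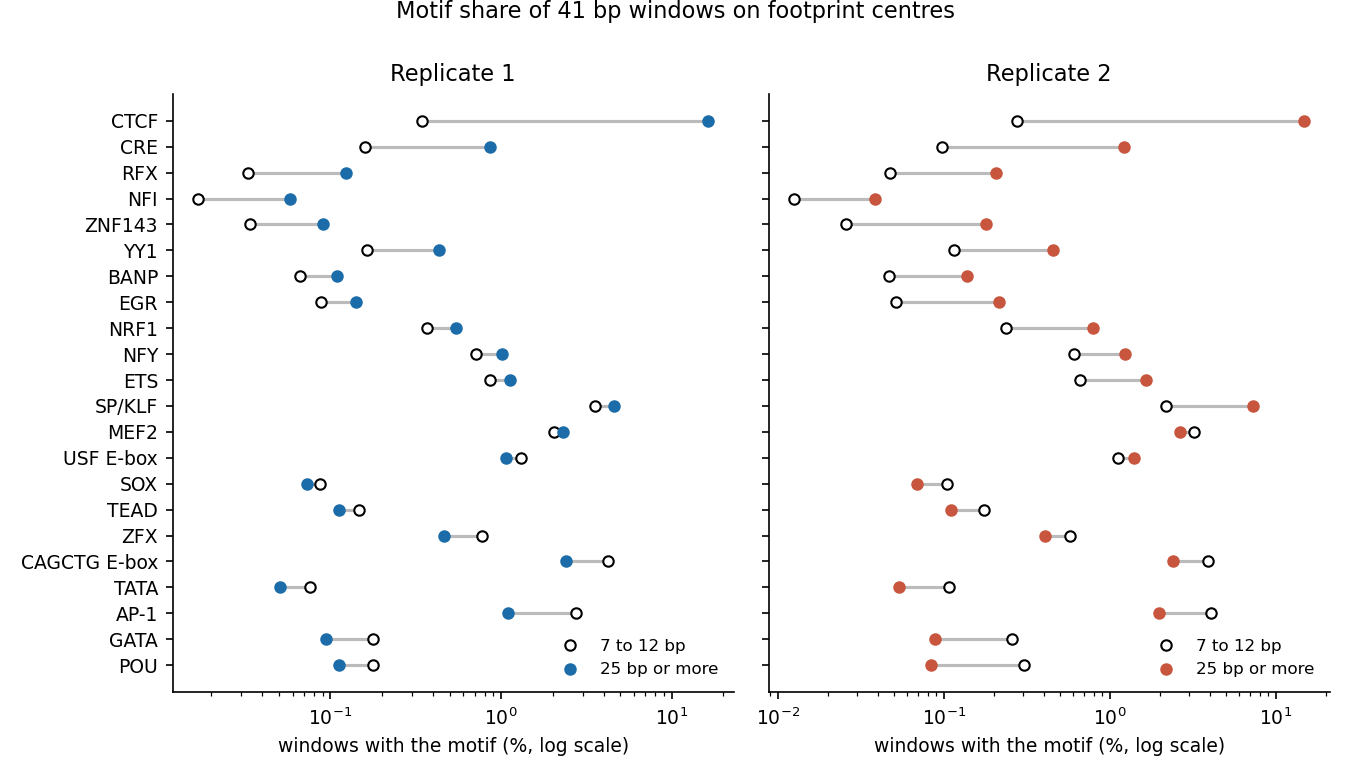
Share of 41 bp windows with each motif (horizontal axis, percent, log scale) for long footprints (filled) and footprints of 7 to 12 bp (open) in replicate 1 (left) and replicate 2 (right), for motifs on at least 10 long footprints of each library. CTCF stands apart at 16.3% and 14.9% of long windows, and AP-1, CAGCTG, POU and GATA are lower in long than in short footprints.

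Without any motif given, the 8-mers most over-represented in long against short footprints came mostly from the same sites. ACTAGGTG ranked highest, in 2.38% and 2.51% of long windows and 0.127% and 0.110% of short ones, a ratio of 18.8 and 22.8. Next came ACCTAGTG (16.9 and 19.8) and AGGTGGCG (16.5 and 20.6). Of the long windows with each of the 10 leading 8-mers, between 76.4% and 95.7% held a CTCF core of up to 1 mismatch. After those windows were left out, a step chosen after the first ranking was seen, GGGTTCGA of the tRNA B box led with ratios of 19.4 and 16.0, on 102 and 83 footprints. The CRE 8-mer TGACGTCA was on 234 and 319 footprints, with 9.02 and 19.9. Among footprints of 41 to 48 bp without a core, GTACTGCA (49.8 and 29.01) and GAACTGCA (31.4 and 25.2) led, the reverse complements of forms of the upstream CTCF motif.

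Long footprints lay almost entirely in peaks, and in strong ones. A main peak overlapped 95.9% and 95.8% of them (95.8% ± 0.132, SD, n = 2), against 63.9% and 67.1% of short footprints and 71.8% and 72.4% of all footprints. The median signal of the peak that held them was 2.94 in replicate 1 and 2.06 in replicate 2, against 1.49 and 1.09 for short footprints. The signal is the authors' own value per peak. Seen from the peaks, 22152 of 71313 main peaks (31.1%) and 22392 of 108103 (20.7%) held a long footprint. Their median signal was 2.56 and 1.89, and that of the peaks without one 0.983 and 0.767, while their median width was 180 and 200 bp beside 180 and 201 bp. No main peak held more than 5 long footprints. Peak strength thus moved with footprint width in both libraries. The overlap with the other library is given within ranges of peak signal further on; for motifs and locations the part of peak strength was not tested.

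The deposited per-base q-values moved with the same contrast. Every base was listed at a q of 0.001 or below in 97.3% and 97.9% of long footprints and in 69.6% and 73.0% of short ones. The footprints were probably made from these q-values, so this is a description and nothing was tested. Sequence that cannot be placed uniquely was rare in both: 0.410% and 0.390% of the bases in long footprints lacked a unique 36-mer, against 0.379% and 0.378% in short ones.

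Promoters held 24.3% and 30.3% of long footprints (27.3% ± 4.22, SD, n = 2), beside 31.2% and 24.2% of all footprints. Against short footprints the direction differed between the libraries, with 30.1% short in replicate 1 and 21.6% in replicate 2. Of long footprints within 500 bp of a TSS, 26.2% and 28.5% were centred in the 50 bp upstream of it, where 16.0% and 14.1% of short ones lay, and 21.2% and 20.0% in the next 50 bp, where 12.2% and 10.7% of short ones lay. Introns held 40.7% and 39.2%, intergenic sequence 46.9% and 47.4%, coding exons 2.20% and 1.93% and other exons 10.2% and 11.5%. Intergenic shares of short footprints were 36.2% and 36.8%. Median GC content was 60% in both libraries, against 60% and 57.1% in short footprints. Repeat sequence made up 9.11% and 7.99% of their bases on average (8.55% ± 0.796, SD, n = 2), against 8.64% and 8.995%. Chromosome 11 had the most long footprints per Mb, 17.6 and 16.6, and chromosome 3 the fewest, 8.38 and 8.10. As a share of each chromosome's footprints, long ones made up 11.01% and 7.80% on chromosome 11 and 10.7% and 6.60% on chromosome 3.

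The other library had a footprint at most places with a long one. At least 1 bp overlapped a footprint of the other library for 93.3% and 95.3% of long footprints (94.3% ± 1.41, SD, n = 2), beside 51.7% and 35.4% of all footprints and 36.5% and 22.1% of short ones. A wide interval meets others more easily than a narrow one, so the central base was also used: it lay in a footprint of the other library for 85.3% and 89.2% of long and 29.7% and 17.8% of short footprints. The difference remained within ranges of peak signal. In peaks of signal 1 to 2 the shares were 85.0% and 90.9% for long and 32.8% and 25.2% for short footprints, and in peaks of 4 or more 88.4% and 90.4% against 48.98% and 41.2%. In the weakest peaks, below 1, the long ones fell to 61.3% and 75.9%.

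**Figure D5:**
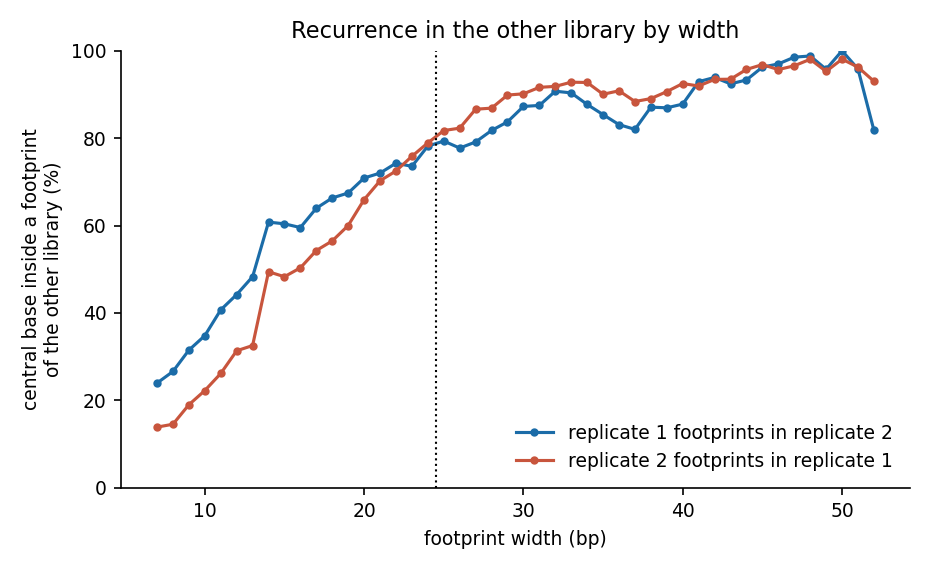
Share of footprints whose central base lay in a footprint of the other library (vertical axis, percent) by width (horizontal axis, bp); lines are the 2 libraries and the dotted line is the threshold of 25 bp. The share was 23.96% and 13.9% at 7 bp, 79.3% and 81.7% at 25 bp and 96.3% and 96.8% at 45 bp.

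The width itself recurred less completely. A long footprint of the other library overlapped 61.1% and 64.5% of long footprints (62.8% ± 2.40, SD, n = 2), beside 11.2% and 7.83% of all footprints. For a further 22.9% and 24.3% the footprint with the largest overlap was 13 to 24 bp, for 9.31% and 6.57% it was 7 to 12 bp, and 6.68% and 4.70% met none. More than 1 footprint of the other library lay under 12.96% and 15.1%. Of those with none, 39.3% in replicate 1 but 14.7% in replicate 2 held a CTCF core of up to 1 mismatch, and their peaks had median signals of 1.31 and 1.00. In the 16859 pairs that were long in both libraries, the start and the end each lay within 2 bp in 69.0% and 69.1%, both edges in 49.1%, and the median difference in width was 2 bp. Across these pairs, which share the underlying sequence, the widths had Pearson's r = 0.60 and Spearman's rho = 0.53, given as a description.

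The 10 widest pairs, ranked by the narrower of both widths, ran from 60 to 63 bp, and 5 of them overlapped a tRNA gene: n-TSgct7, n-TLtag1, n-TRccg2, n-TRtct5 and n-TGgcc5. Ccdc66, a gene of centrosomes and cilia, and Col18a1 shared the highest value. The first pair lay 65 bp upstream of the Ccdc66 TSS, with 63 bp in both libraries and a peak signal of 9.81 ± 0.780 (SD, n = 2). Its sequence held the NFY site CCAATCA on each strand, shown in capitals. The pair in an intron of the collagen gene Col18a1, with 63 and 65 bp and a signal of 5.49 ± 0.444, held 2 CTCF cores of 1 mismatch side by side, in capitals.
Ccdc66 promoter, chr14:27508494-27508556, plus strand: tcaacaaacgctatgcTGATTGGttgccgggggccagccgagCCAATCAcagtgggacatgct
Col18a1 intron, chr10:77130730-77130794, plus strand: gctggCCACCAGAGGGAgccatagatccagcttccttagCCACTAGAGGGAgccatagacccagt

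The remaining widest pairs lay upstream of Shf, 67 bp upstream of the TSS of the membrane skeleton gene Epb41, and in an intron of a long non-coding gene distal to Rnf219. In the last, 37.1% of the bases lacked a unique 36-mer. The 5 pairs in the strongest peaks lay in only 2 peaks. An intergenic peak distal to Igf2bp3 on chromosome 6 had signals of 45.5 and 35.5 and held long footprints of 47 and 30 bp in replicate 1 and 48 and 30 bp in replicate 2. A peak at Kpna1 on chromosome 16 had 40.1 and 31.0 and held 3 pairs of 34 to 46 bp in replicate 1 and 37 to 50 bp in replicate 2. In these 5 pairs between 0% and 60% of the bases lacked a unique 36-mer, so part of their reads cannot be placed with certainty. Whether these pairs, or the RFX pair in Cd44 named next, resemble multi-copy ribosomal DNA was not tested.

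The widest pairs for each of the named motifs are shown next, with the motif in capitals, to set the protected length beside the length of the site. Of the pairs, 3486 held an exact CTCF core in both windows, 91 an NRF1 site, 20 a ZNF143 site, 17 an RFX site, 8 an NFI site and 0 a REST site. The widest with a CTCF core, 53 and 55 bp, lay distal to Tarbp1, outside the main peaks of replicate 2. The next, 51 and 50 bp, lay 106 bp upstream of Agfg1. The widest with RFX, 53 bp in both libraries in an intron of Cd44, had 37.7% of its bases without a unique 36-mer; the next, in an intron of the synaptotagmin gene Syt5 144 bp upstream of a TSS, was 36 and 39 bp wide. NFI pairs lay near Dennd2a and Irf2bpl (40 and 38 bp, 36 and 45 bp). NRF1 pairs lay at Ints3, of the Integrator complex (46 bp in both), and Gcfc2 (48 and 46 bp). The ZNF143 pairs lay at Lars, a leucyl-tRNA synthetase gene (37 and 38 bp), and Fam91a1 (41 and 37 bp). The CRE pairs, added after its 8-mer had been seen, were the widest without an exonic base: Mrpl16 with 46 and 52 bp, and H2-Aa, an MHC class II gene, with 46 bp in both. Only the named motif is in capitals. The H2-Aa sequence also holds the NFY site CCAATCA, and the Mrpl16 sequence the searched TATA motif TATAAAAG, both in lower case.
Agfg1 promoter, CTCF, chr1:82839352-82839403, plus strand: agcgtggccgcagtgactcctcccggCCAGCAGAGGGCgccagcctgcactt
Syt5 promoter, RFX, chr7:4546691-4546729, plus strand: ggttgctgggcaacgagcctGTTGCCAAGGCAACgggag
Irf2bpl distal, NFI, chr12:86894487-86894531, plus strand: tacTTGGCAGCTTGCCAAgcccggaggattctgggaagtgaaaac
Ints3 promoter, NRF1, chr3:90433755-90433800, plus strand: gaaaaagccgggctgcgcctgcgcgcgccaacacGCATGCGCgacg
Mrpl16 promoter, CRE, chr19:11770328-11770379, plus strand: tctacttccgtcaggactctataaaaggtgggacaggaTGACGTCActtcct
H2-Aa promoter, CRE, chr17:34287863-34287908, plus strand: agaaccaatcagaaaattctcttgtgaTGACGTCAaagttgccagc

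Of 20780 protein-coding genes, 3838 (18.5%) had a pair within 1 kb of a TSS, 800 had at least 2 and 118 at least 3. Among the 13024 genes with any footprint there in both libraries the share with a pair was 29.5%. Rbpj, the DNA-binding effector of Notch signalling, had the most, 6 pairs of 25 to 38 bp. Jun, an immediate early gene and AP-1 subunit, followed with 5 of 26 to 36 bp and 1700064H15Rik with 5 of 26 to 34 bp. Of these pairs, 5 at Rbpj, 3 at Jun and 1 at 1700064H15Rik lay in main peaks of both libraries. Acin1, which acts in RNA splicing, shared its 4 pairs and a mean peak signal of 14.6 with 1700123O20Rik, and Dcaf6 shared 4 with the mitochondrial pyruvate carrier gene Mpc2. Prmt5, an arginine methyltransferase, Hnrnpc, which binds nascent transcripts, and Rab11b, of vesicle recycling, had 4 each. None of the pairs at these 10 genes had a CTCF core of up to 1 mismatch. Such a core was in only 10.3% and 7.77% of all long footprints within 1 kb of a TSS.

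By gene list, promoters of broadly active and activity-induced genes often held pairs, and those of pan-neuronal genes held none. Counts over a whole list stand beside the 18.5% of all genes, and counts over its members with a footprint in both libraries beside the 29.5%. A pair lay at 9 of 11 housekeeping genes, among them Rplp0 (3 pairs, 25 to 38 bp), Rps18 (40 bp) and Ppia (37 bp), and at 8 of 12 immediate early genes. These were Jun, Junb, Jund, Fosb, Egr1, Nr4a1, Arc and Dusp1, with Arc, a synaptic gene induced by activity, at 2 pairs of 30 and 31 bp and Jund at 34 bp. All 11 pan-neuronal genes had a footprint in both libraries, but 1 and 3 had a long one and 0 had a pair. Of 10 astrocyte genes S100b had a pair (25 bp), which lay outside the main peaks of at least 1 library. No pair was found in the inhibitory neuron, oligodendrocyte, microglia, endothelial and muscle lists, in which only 5, 8, 4, 3 and 4 genes had a footprint in both libraries, too few to set against the 29.5%. As a check of the tissue label, a footprint in both libraries lay at 11 of 11 pan-neuronal, 0 of 10 hepatocyte and 4 of 10 muscle genes; the muscle list was thus close to the inhibitory neuron list (5 of 10). In bulk tissue, fewer cells with a bound site and less binding per cell cannot be told apart.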

How the data were processed

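DNase-seq of 2 libraries of mouse left cortex was analysed from the lists the authors deposited for each library: 2 peak lists with a signal per peak, a footprint list whose score was 0.01 in every row (only its intervals were used), and per-base q-values of at most 0.05. Coordinates are mm10, per the file headers; the accompanying notes say that footprints were derived from the alignments of their own library, and which tools made them is not given in the sources used here. Read depth and the scaling of the peak signal are unknown, so no counting interval is given. Members, motifs and gene lists were chosen with earlier results of these data known.

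Widths, overlaps (at least 1 bp), locations and motifs were obtained on GRCm38.p6 by code in python 3.11.15, numpy 2.4.6 and pandas 2.3.3, with GENCODE M21 genes and RefSeq tRNA genes, and tested on simulated data. The shorter peak list was the main list. Motifs were exact consensus matches on both strands in 41 bp windows; reads of the CAST genome were set against C57BL/6 sequence. The 8-mers needed at least 30 windows in each library. Pairs overlapped and were 25 bp or more in both libraries. Named regions were the 10 widest pairs, the 5 in the strongest peaks, the 2 widest for each of CTCF, REST, RFX, NFI, NRF1 and ZNF143, the 10 genes with most pairs and members of the gene lists (1 list is not reported here); printed sequences hold no exonic base. Alternatives were other width thresholds (20 and 30 bp), peak lists, windows and overlaps, and each library alone.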

Additional observations from a re-analysis of the deposited data

How the results depend on the processing

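No paired analysis was possible because the design holds a single group. Of 43 alternatives other than leaving out a library, 20 stayed within 1 SD of the 2 libraries (within 1.5 times for counts), and 23 moved by more; the cause was not tested. With a threshold of 20 bp the mean number of long footprints was 45846.5, the share in a main peak 93.2%, near a TSS 31.8%, overlapping a footprint of the other library 89.8%, with a CTCF core 10.7% and the median GC content 61.3%. With 30 bp the number was 14836, the main peak share 97.5%, the overlap with any footprint 96.8% and with a long one 58.2%, the CTCF share 17.8% and the GC content 58.6%. The main peak share was 97.8% with the wider list, 92.6% for footprints wholly inside and 96.4% under 50% repeat bases, where the mean repeat share was 1.57%. An overlap of at least 50% gave 81.5% for any footprint, and the central base, added after seeing the data, 87.2%. In peaks shared by both libraries the overlaps were 97.6% and, with a long footprint, 67.2%. The CTCF share was 39.4% with 1 mismatch and 20.7% among footprints long in both libraries (added after seeing the data). GC content of 61 bp windows was 55.7%. The libraries alone are the values given for each above. Read depth is unknown, which limits what the absence of a footprint in a library can show.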
